A study of Homo sapiens with 4 samples.

Results

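The regions described here are the rows of 3 lists of enriched regions that overlapped, by at least 1 bp, 5 windows of the human genome that hold the replication-dependent histone gene clusters. In hg19 the windows are chromosome 6 from 26017000 to 26290000, from 27095000 to 27120000 and from 27775000 to 27870000, and chromosome 1 from 149780000 to 149862000 and from 228610000 to 228650000. They are called the first, the second and the third chromosome 6 cluster and the first and the second chromosome 1 cluster. The members number 132 of 128734 regions: 44 of 11604 for 53BP1, 43 of 62530 for Pol II S5p and 45 of 54600 for Pol II S2p. Membership used position and no measured value.

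The lists come from chromatin immunoprecipitation with sequencing (ChIP-seq) in MCF10A, an established non-tumour human breast epithelial line, cross-linked with formaldehyde. The labels name no treatment, time point, genotype or cell cycle state for any library. One library each was made for 53BP1, known for its role in repair of DNA breaks and as a partner of p53, and for RNA polymerase II phosphorylated on serine 5 (S5p, found mostly near gene starts) or serine 2 (S2p, found on elongating polymerase) of its C-terminal repeats. An input library was not analysed here. With 1 library per ChIP there is no replicate spread, so the values below carry no test, and the read depth behind them is unknown.

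Replication-dependent histone genes encode the linker histone H1 and the core histones H2A, H2B, H3 and H4 that package newly made DNA. They are short and without introns, and stand in dense groups in which these families are mixed. They are transcribed mainly in S phase with the help of NPAT at nuclear histone locus bodies. Their messages end in a stem-loop bound by SLBP, in place of a poly(A) tail. The share of cells in S phase was not given by the labels.

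The gene table at hand is RefSeq for GRCh38.p14, a different build from the lists, so it was used for names, families and order only, and no region was assigned to a gene. It lists 68 coding histone genes of these series, 55 on chromosome 6 and 13 on chromosome 1: 6 of H1, 17 of H2A, 18 of H2B, 13 of H3 and 14 of H4. On chromosome 6 they form a run of 32 from H1-1 to H4C8, a run of 5 from H2BC11 to H2AC12 and a run of 16 from H2BC13 to H2BC17, with H2AC1 and H2BC1 apart. On chromosome 1, 11 stand between H2BC18 and H2AC21, and H2AC25 and H2BC26 stand together. Of the 14 neighbouring pairs of an H2A and an H2B gene, 11 are listed as transcribed away from each other. A gene with such a neighbour on both sides, as H2AC11 and H2BC15, is counted in both pairs. The label of the windows could not be checked against gene positions in hg19. For the same reason, genes of other kinds in the windows were not counted or named. A region in a window is therefore not shown to lie at a histone gene.

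To show what kind of start these genes have, the 250 bases before the start are printed for 1 gene of each family, the lowest-numbered with an entry in the run from H1-1 to H4C8, from RefSeq promoters of GRCh38.p14. Their coordinates are GRCh38 and cannot be set against the hg19 positions of the regions. Each is 5′ to 3′ on the gene's strand, with capitals at the matches to TATAAA (the TATA box), CCAAT (the core of the CCAAT box) or ATTTGCAT (the octamer) on either strand, and no base is in more than 1 match.
H1-1 (chr6:26017788-26018037, minus strand): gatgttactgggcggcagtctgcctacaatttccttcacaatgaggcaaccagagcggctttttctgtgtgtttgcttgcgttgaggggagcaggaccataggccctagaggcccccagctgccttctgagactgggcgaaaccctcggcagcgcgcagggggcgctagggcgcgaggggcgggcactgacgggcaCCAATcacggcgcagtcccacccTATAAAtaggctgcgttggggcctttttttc
H2AC4 (chr6:26033619-26033868, minus strand): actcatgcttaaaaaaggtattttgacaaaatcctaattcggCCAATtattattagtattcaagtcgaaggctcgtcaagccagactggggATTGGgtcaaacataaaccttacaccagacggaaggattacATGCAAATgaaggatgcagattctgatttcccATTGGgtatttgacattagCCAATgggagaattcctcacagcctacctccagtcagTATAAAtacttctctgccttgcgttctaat
H2BC3 (chr6:26043714-26043963, minus strand): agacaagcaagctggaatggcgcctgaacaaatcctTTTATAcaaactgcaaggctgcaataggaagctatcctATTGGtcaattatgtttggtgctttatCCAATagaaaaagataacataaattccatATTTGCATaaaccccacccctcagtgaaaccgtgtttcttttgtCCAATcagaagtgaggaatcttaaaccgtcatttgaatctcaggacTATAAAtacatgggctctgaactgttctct
H3C1 (chr6:26020201-26020450, plus strand): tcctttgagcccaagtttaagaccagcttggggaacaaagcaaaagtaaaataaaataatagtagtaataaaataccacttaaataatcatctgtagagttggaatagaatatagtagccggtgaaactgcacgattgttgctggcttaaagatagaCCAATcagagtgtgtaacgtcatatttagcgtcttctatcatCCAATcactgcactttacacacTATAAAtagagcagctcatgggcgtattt
H4C2 (chr6:26027284-26027533, minus strand): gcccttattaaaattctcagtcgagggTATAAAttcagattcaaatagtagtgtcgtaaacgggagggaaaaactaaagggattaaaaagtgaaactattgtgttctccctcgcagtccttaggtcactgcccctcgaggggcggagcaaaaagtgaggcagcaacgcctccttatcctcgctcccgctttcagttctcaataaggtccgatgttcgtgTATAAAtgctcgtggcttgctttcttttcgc

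Promoter entries were found for 63 of the 68 genes, all but H4C1, H4C3, H2AC12, H3C11 and H3C12. In the same 250 bases and on both strands, CCAAT was in 54 of the 63 (85.7%) and in 33.0% of 27305 promoters, 1 a gene. It was in every H1, H2A, H2B and H3 promoter with an entry and in 3 of 12 of H4. TATAAA was in 41 of 63 (65.1%), against 11.1% of all promoters. The octamer was in 26 of 63 (41.3%), against 1.66%, and sat mostly with the H2B (14 of 18) and H2A (11 of 16) genes, with 1 of 11 for H3 and none of 6 for H1 and of 12 for H4. These are matches of letters and not shown binding sites. The entries of H3C4 and H2AC7 on chromosome 6 have the same 250 bases. That sequence was therefore counted in both the H3 and the H2A family. H3C4 and H2AC7 are neighbours in the gene order. Whether their entries are separate copies or the same stretch of the chromosome was not checked. On chromosome 1 the 250 bases of H4C14 and H4C15 are identical too. Reads from identical sequences at different places may be hard to place, and how they were handled is not given in the sources used here. The effect of identical sequences was not tested.

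Regions of all 3 lists were dense in the windows. The 515 kb held 8.54 regions of 53BP1 per 100 kb, 8.35 of S5p and 8.74 of S2p. In the 1000 kb made up of 100 kb on each side of every window, the numbers were 1.5, 3.2 and 2.6 per 100 kb. Bases covered by 53BP1 made up 14.8% of the windows and 0.875% of the flanks. For S5p these shares were 25.8% and 7.55%, and for S2p 24.5% and 9.10%. The flanks were not checked for histone genes of their own.

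The first chromosome 6 cluster, 273 kb long, held 25 regions of 53BP1, 27 of S5p and 25 of S2p. The third, 95 kb, held 13, 8 and 9, and the second, 25 kb, held 2, 3 and 3. On chromosome 1 the first cluster, 82 kb, held 3, 3 and 4 and the second, 40 kb, held 1, 2 and 4. Per 100 kb, 53BP1 thus ran from 13.7 regions in the third chromosome 6 cluster, and 9.16 in the first, down to 3.66 and 2.5 on chromosome 1. Cut into 100 kb tiles, the genome had 13037 tiles with a summit (the base of highest signal) of any list. The first chromosome 6 cluster fell on tiles with 8, 9 and 8 summits of 53BP1. Only 67 tiles (0.514%) had 8 or more, 39 (0.299%) had 9 or more, and the highest was 14. Of S5p those 3 tiles had 8, 12 and 7, a number that 21.9%, 11.4% and 25.6% of tiles reached. Tiles of the other clusters were less unusual, with 2 to 7 summits of 53BP1. Of the 13037 tiles, 19.2% reached 2 and 0.859% reached 7.

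**Figure D1:**
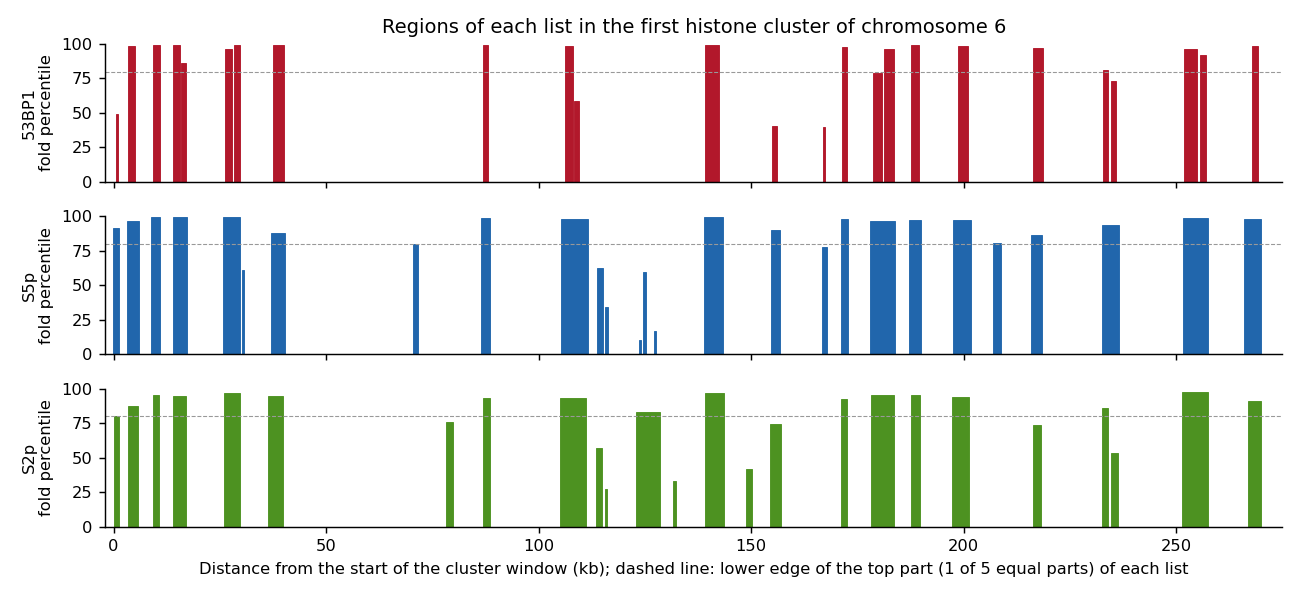
Regions of 53BP1, S5p and S2p in the first chromosome 6 cluster, by distance from the window's start (kb), with bar width the region's width and bar height its percentile by fold in its own list. Most 53BP1 bars stand on an S5p and an S2p bar, and the S5p bars below the dashed line at the 80th percentile have no 53BP1 above them, save 1.

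**Figure D2:**
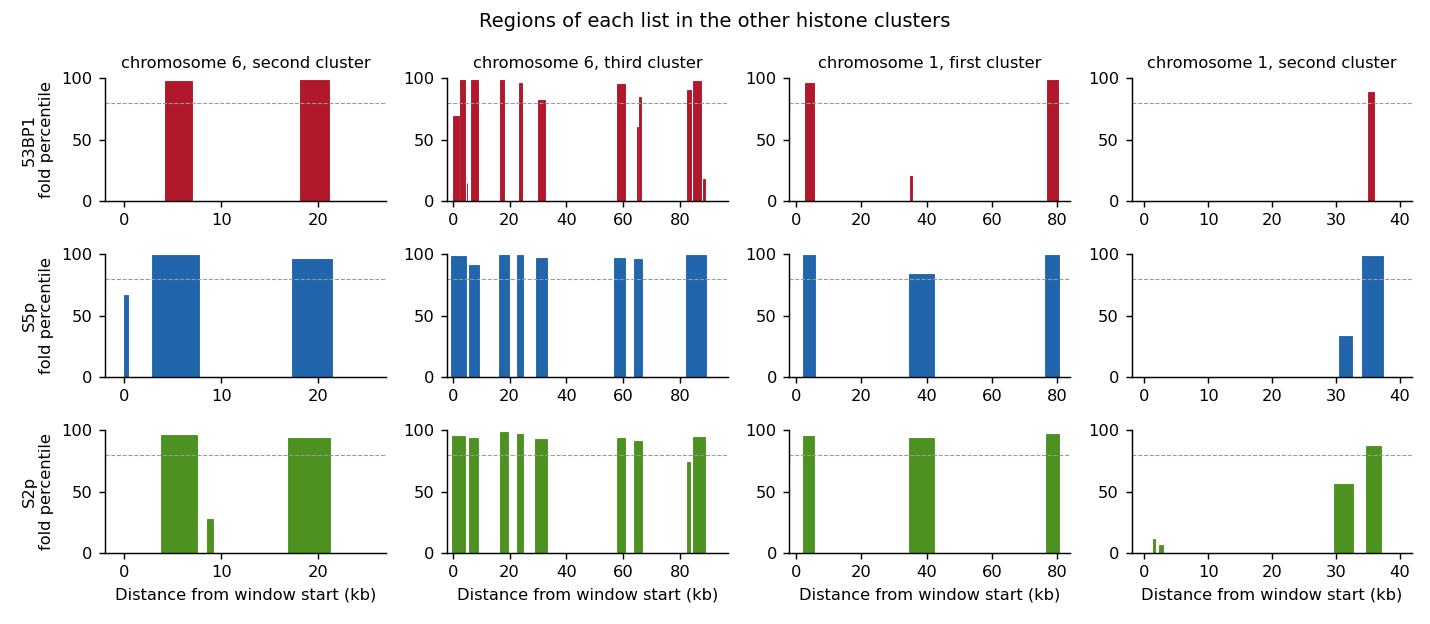
The same plot for the other 4 windows, each on its own distance scale in kb. The third chromosome 6 cluster has 8 S5p regions, all above the 80th percentile and all with 53BP1, while the second chromosome 1 cluster has 1 region of 53BP1.

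Most members ranked high in their own list. A percentile here is the rank of a region in its list by the authors' fold enrichment over background, 100 being the strongest; folds of different lists are not on 1 scale. The median percentile was 96.2 for 53BP1 (exact binomial 95% interval of the median 89.1 to 98.3), 96.8 for S5p (90.2 to 98.3) and 92.9 for S2p (83.2 to 94.2). These intervals treat regions as independent and cover no spread between libraries. Each list was divided by fold into 5 equal parts, and the part with the highest folds is called its top part. The top part took in 33 of 44 members of 53BP1, 34 of 43 of S5p and 31 of 45 of S2p. Above the 99th percentile were 7 of 53BP1 and 12 of S5p, and none of S2p, whose highest member was at 98.4. In the flanks the medians were 30.4, 72.2 and 57.2.

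The clusters did not rank alike. The medians of S5p were 99.7 in the first chromosome 1 cluster (3 regions) and 97.9 in the third chromosome 6 cluster (8 regions). They were 96.7 in the second chromosome 6 cluster (3 regions) and 93.9 in the first (27 regions). The second chromosome 1 cluster had 65.9, from only 2 regions, at 33.2 and 98.6. Its S2p median, 33.8 over 4 regions, was also the lowest. For 53BP1 the medians ran from 89.1 in that cluster, from its single region, to 98.05 in the second chromosome 6 cluster, from 2 regions.

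**Figure D3:**
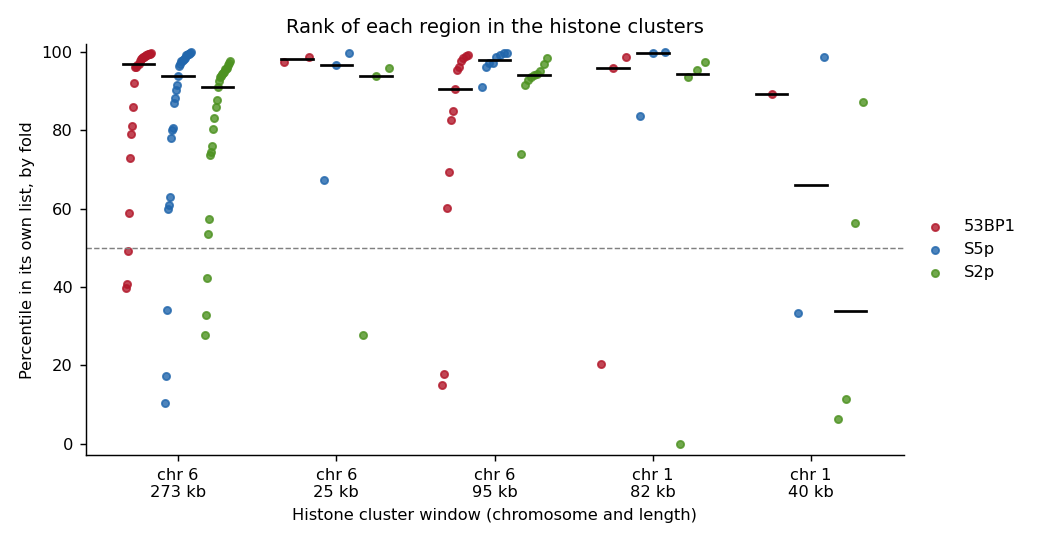
Percentile by fold of every member in its own list, for the 5 windows in the order of the text; each point is 1 region, black lines are medians and the dashed line is the middle of a list. Points crowd near the top in the chromosome 6 clusters, and the second chromosome 1 cluster has an S2p median of 33.8.

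53BP1 was found on 33 of the 43 S5p members (76.7%, exact Clopper-Pearson 95% interval 61.4 to 88.2), against 15.2% of the S5p list. Strength moves with this share. In the top part of S5p, 32 of 34 members held 53BP1 (94.1%, 80.3 to 99.3), against 71.4% of that part of the list. Below it, 1 of 9 did, against 1.15%. Above the 95th percentile of S5p all 25 members held 53BP1, against 98.8% of such regions everywhere. At that strength the share with 53BP1 was at the level of the list. In the flanks 13 of 32 S5p regions held 53BP1, and 8 of the 12 that belonged to the top part.

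The larger difference from the list was in how much of the S5p region 53BP1 took up. In the 32 S5p members of the top part with 53BP1, its regions covered a median of 68.05% of the bases (59.0 to 72.8), against 23.2% in the 8933 such regions of the list. At least 50% was covered in 25 of 32 members (78.1%, 60.03 to 90.7), against 9.2% in the list. Above the 95th percentile of S5p it was 21 of 25 (84%, 63.9 to 95.5) against 7.28%. Among S5p regions as wide as the members it was 25 of 32 against 6.08%. Where the strongest 53BP1 region on the S5p region was itself above the 95th percentile of 53BP1, it was 23 of 25 (92%, 74.0 to 99.02) against 18.4%. The list shares include the members. No test was made of these differences.

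The cover was high in most clusters. Of the 32 loci, 15 had more than 70% of the S5p region under 53BP1. The highest was 82.3%, at 26232926 to 26235536 in the first chromosome 6 cluster. The 2 strong loci of the first chromosome 1 cluster had 72.8% and 76.3%. The lowest, 7.68%, was the remaining S5p region of that cluster, at 149814556 to 149822419, the widest of all members at 7864 bp. The second chromosome 1 cluster had 32.2% at its 1 locus.

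**Figure D4:**
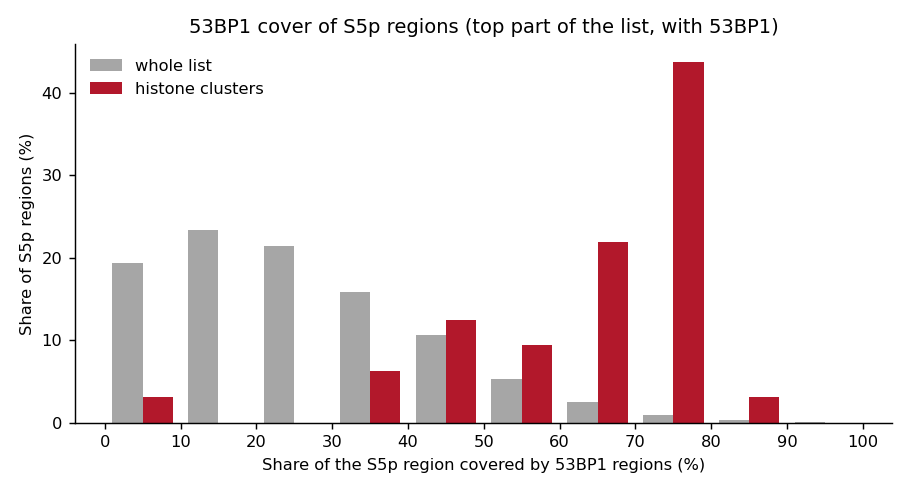
Share of S5p regions (%) by the share of their bases covered by 53BP1 (%, in steps of 10), for S5p regions of the top part that hold 53BP1, in the whole list (grey, 8933 regions) and the histone clusters (red, 32 regions). The list is highest at 10 to 20% cover and the histone clusters at 70 to 80%.

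The 53BP1 regions themselves were wide. Their median width was 1575.5 bp (1286 to 2023), against 561 bp in the list, which put the median member at the 97.1st percentile of 53BP1 widths. In the top part by fold the medians were 1791 bp (1489 to 2416) and 822.5 bp. Over all members S5p regions were also wider than their list, with medians of 3236 bp (2129 to 3975) against 970 bp, and S2p regions likewise, with 2686 bp (1595 to 3341) against 1098 bp. For S5p the medians in the top part were 3478.5 bp in the members (2759 to 4144) and 2482.5 bp in the list. For S2p the direction turned in the top part, with 3341 bp (2686 to 4152) in 31 members against 6123.5 bp in the list. The widest member was 3476 bp for 53BP1, 7864 bp for S5p and 7492 bp for S2p, and the widest regions of the lists were 12009, 125529 and 161391 bp.

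**Figure D5:**
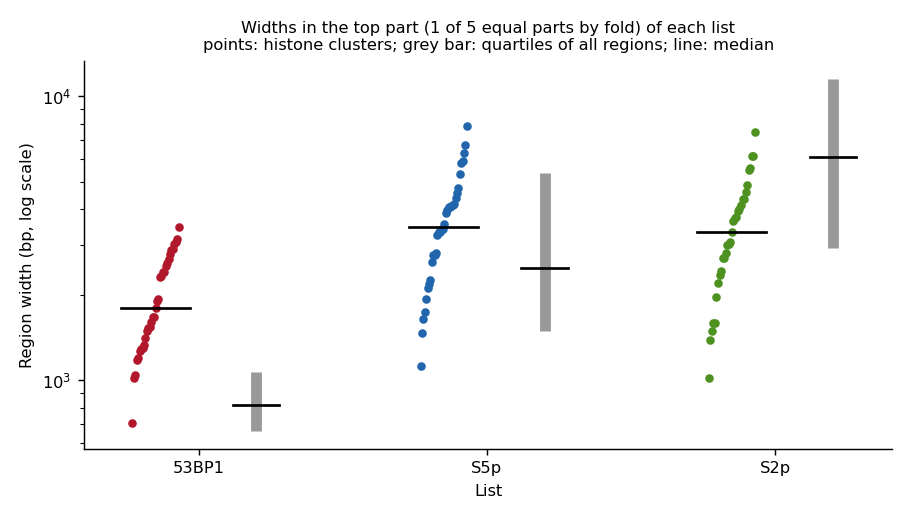
Region widths (bp, log scale) in the top part of each list by fold; points are histone cluster members, black lines are medians and grey bars span the quartiles of that part of the whole list. The members' median lies above that of the list for 53BP1 (1791 against 822.5 bp) and below it for S2p (3341 against 6123.5 bp).

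S2p accompanied S5p at nearly all strong loci, over a similar span. S2p overlapped 38 of 43 S5p members (88.4%, 74.9 to 96.1), against 60.2% of the list, and 32 of 34 in the top part (94.1%), against 76.5%. Above the 95th percentile of S5p all 25 members met S2p, against 99.4% of such regions everywhere, so at that strength the share was at the level of the list. At the 32 loci of the top part with S2p the S2p span was a median of 0.905 times the S5p width, from 0.677 to 1.08, and it was the shorter of the pair at 26 (81.2%), against 59.1% of the list's 9567 such regions. In the top part of the list the median ratio was close to that, 0.900. The range there reached 68.6, over 9567 regions, and a range widens with their number. The gap between the S5p and the S2p percentile was smaller than in the list. Above the 95th percentile of S5p its median was 3.65 points over 25 members (2.78 to 4.64), against 7.87 over 3109 regions with S2p. S2p covered a median of 89.7% of those S5p members, against 79.8%.

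Read from S2p, 38 of the 45 members met S5p (84.4%, 70.5 to 93.5), against 54.9% of the list, and 34 met 53BP1 (75.6%, 60.5 to 87.1), against 13.9%. In the top part of S2p all 31 members met S5p, against 92.6%, and 30 met 53BP1 (96.8%, 83.3 to 99.9), against 36.8%. These shares do not hold S5p strength equal.

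Of the 44 members of 53BP1, 42 lay on both S5p and S2p (95.5%, 84.5 to 99.4), against 78.6% of the list. One lay on S5p alone, none on S2p alone and 1 on neither, and 43 were on S5p (97.7%, 88.0 to 99.9), against 97.6%. The 1 region on neither mark was narrow and weak, at 27779924 to 27780147 in the third chromosome 6 cluster, with a fold of 4.10 (percentile 14.9). It was 348 bp from the nearest S5p region.

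The strongest 53BP1 members were in the first chromosome 6 cluster. The region at 26031107 to 26032595 had a 53BP1 fold of 33.5 (percentile 99.6), on an S5p region of fold 93.9 and an S2p region of fold 14.8. Next came 26026351 to 26027961, with a 53BP1 fold of 29.2, an S5p fold of 94.8 and an S2p fold of 17.6. At 26103903 to 26105106 the folds were 27.9, 77.7 and 12.8. At all 3 loci the 53BP1 and S5p percentiles were above 99, and S2p was at 94.7, 95.9 and 93.5.

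The other 7 of the 10 strongest in that cluster had 53BP1 folds of 20.6 to 27.2, all above the 98th percentile. They began at 26045270, 26054588, 26156254, 26204518, 26284820, 26215584 and 26020483. The locus at 26053938 to 26057343 stood out among them by fold. Its S5p fold was 19.6 (percentile 88.2), below both its 53BP1 (25.4, 99.2) and its S2p (14.5, 94.6) in rank. The deposited −log10 q-value of this S5p region was 744.1. The S5p region at 26194973 to 26200901, with a fold of 47.6, had 734. By q-value it thus stood above a region of higher fold. Among the S5p regions of these 10 loci, however, only that at 26214448 to 26218611 was lower, at 653.2. Its percentile by q-value is not given here. The 53BP1 region at 26156254 was 3151 bp wide, the widest of this cluster, on an S5p region of fold 116.5.

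In the third chromosome 6 cluster the strongest 53BP1 region, at 27791557 to 27793096, had a fold of 24.9 (percentile 99.1). Its S5p region had a fold of 126.5, and its S2p region, 27791567 to 27794252, the highest S2p fold of all members, 32.8. The next were at 27777443 to 27779233 (53BP1 fold 23.3), 27781435 to 27783850 (19.9), 27859706 to 27862597 (17.4) and 27798236 to 27799508 (14.6). The other 5 of the 10 strongest there had folds of 7.62 to 14.1, and began at 27832901, 27857518, 27840681, 27804836 and 27774902. 53BP1 in this cluster was thus spread over a range from the 14.9th to the 99.1st percentile, while the lowest S5p member was at 91.0.

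The second chromosome 6 cluster had its 2 regions of 53BP1 at 27099144 to 27102024 (fold 16.9, percentile 97.5) and 27113135 to 27116161 (fold 21.2, 98.6). The S5p folds there were 97.5 and 46.9, so the order of the loci differed between 53BP1 and S5p. In the first chromosome 1 cluster the region at 149856825 to 149860300 had a 53BP1 fold of 22.4 (98.8) and was the widest 53BP1 member. Its S5p fold was 141.7 and its S2p fold 24.2. The region at 149782825 to 149785406 had 14.5, 107.2 and 16.1 for the 3 marks in the same order. The remaining region, at 149815016 to 149815619, had a 53BP1 fold of only 4.33 (20.4), on S5p of 11.7 and S2p of 12.9. In the second chromosome 1 cluster, 228645004 to 228646044 had a 53BP1 fold of 10.8 (89.1), with S5p at 64.3 and S2p at 7.86.

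Among S5p members the 5 largest folds were 155.8 at 26042712 to 26046802, 141.7 at 149856139 to 149860695, 126.5 at 27791369 to 27794709, 116.5 at 26156012 to 26160398 and 114.8 at 27857340 to 27864056. All 5 held 53BP1, and their S2p percentiles ran from 94.2 to 98.4. Among S2p members the 5 largest folds were 32.8, as above, 25.95 at 26268343 to 26274497, 24.2 at 149856534 to 149860478, 22.7 at 26156091 to 26160697 and 21.75 at 27797747 to 27799711. The S2p and S5p lists of 5 shared 3 loci, those that began in S5p at 149856139, 27791369 and 26156012.

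The 10 S5p members without 53BP1 ranked lower than most of those with it. Their percentiles ran from 10.4 to 80.4 (median 60.5) and their widths from 460 to 2129 bp, while the 33 with 53BP1 ran from 78.0 to 99.9 and from 1038 to 7864 bp. In percentile the groups overlapped only between 78.0 and 80.4. Of those 10, 6 were at or above the list's median fold, and 2 of these were in the top part. The 2 strongest, 26087443 to 26088563 (S5p fold 8.60) and 26223972 to 26225709 (8.79), met no S2p either, nor did 26047194 to 26047781 (4.38) and 27094933 to 27095397 (4.96). The remaining 2, 26130723 to 26132058 (4.53) and 26141486 to 26142238 (4.29), met S2p. Because depth is unknown, 53BP1 at these places was not detected and is not shown to be absent.

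One stretch of the first chromosome 6 cluster carried S2p with little S5p and no 53BP1. From 26139985 to 26145575 an S2p region with a fold of 6.52 (percentile 83.2) spanned 3 S5p fragments at percentiles of 10.4, 59.9 and 17.2. It was the 1 member of the top part of S2p that met no 53BP1. The 7 S2p members without S5p were at percentiles of at most 75.9, with a median of 27.7, and the strongest of them was at 26095315 to 26096842, 6694 bp from the nearest S5p region.

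53BP1 regions followed each other closely. Between neighbours in the same window the median distance of summits was 6713 bp over 39 steps (2796 to 12477), and 22 steps (56.4%) were within 10 kb. Such steps cannot be longer than the window, so they were not set against the list. Counted to the nearest other 53BP1 summit on the chromosome, inside a window or not, the median distance was 2768.5 bp over the 44 members (2400 to 6357) and 28266.5 bp over the list (27024 to 29557). It was within 10 kb for 32 members (72.7%) and for 32.7% of the list. Some S5p members held more than 1 region of 53BP1: 8 held 2, and that at 27857340 to 27864056 held 3. Those 9 of 33 (27.3%, 13.3 to 45.5) compare with 12.6% of the list, whose value lies just under that interval.

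The summit of 53BP1 was within a median of 103 bp of the S5p summit (49 to 373, 43 regions), and within 500 bp at 29 of 43 (67.4%). Over the list the median was 78 bp, and 79.6% of 11250 summits were within 500 bp, a higher share than in the members. 53BP1 regions that share an S5p region are all measured to its 1 summit. Of S5p regions with 53BP1, 27.3% of the members held 2 or more of them, against 12.6% of the list. What this does to the distances was not tested. To the S2p summit the median was 558.5 bp (242 to 817, 42 regions), against 177 bp in the list. Of the 42 summits inside both marks, 31 were nearer to S5p (73.8%) and 11 to S2p. In the list 62.9% of 8733 such summits were nearer to S5p, and the difference was not tested. The farthest from S5p, by 6446 bp, was the weak region in the wide S5p region of the first chromosome 1 cluster.

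Across S5p members, fold ranks of S5p and S2p were related with a Spearman rho of 0.803 (38 loci), and of 0.703 within the top part (32 loci). In the list these were 0.238 and 0.306. The rho of 53BP1 with S5p was 0.549 over 33 loci, near the 0.588 of the list, and with S2p 0.506 over 32, against 0.294. Each S5p region was given the highest fold of any 53BP1 or S2p region that it met. Among the 38 loci, 3 met the same S2p region, of fold 6.52. The rho values are descriptions over regions of the same 3 libraries, and loci are not replicates.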

How the data were processed

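One library each of 53BP1, Pol II S5p and Pol II S2p was used, with groups from the sample labels. The authors deposited lists of 11605, 62532 and 54601 regions in hg19; the build and bcl2fastq 2.20.0.422 are named in the submitters' processing notes. Which aligner, peak caller, settings and control were used is not given in the sources used here. Each region has the authors' fold (a ratio over background), a deposited −log10 p-value and −log10 q-value, a deposited score equal to 10 times the latter within 1, and a summit offset. The input was not analysed, and whether reads were pooled is unknown.

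Rows on sequences other than the 22 autosomes and X (1, 2 and 1) were dropped. Overlap meant 1 bp or more. Fold set the rank within a list and its 5 equal parts. Shares have exact Clopper-Pearson and medians exact order-statistic 95% intervals, over regions. Overlaps were tested on simulated data (2000 regions against a direct search, 0 wrong). Named are all 53BP1 members of a window, or its 10 strongest; the 5 strongest S5p and S2p members; the widest of each list; and S5p members at or above the list's median fold without 53BP1. The promoter rule (the first symbol of each family) was narrowed to the run from H1-1, since H2AC1 and H2BC1 stand apart. The members and lists were chosen with earlier results of these data known; cover of S5p by 53BP1 and the distance to the nearest 53BP1 summit were chosen after seeing the data. No chance test was made, since each ChIP had 1 library. The work used scipy 1.17.1, pandas 2.3.3 and numpy 2.4.6 in Python 3.11.15, with plots by matplotlib 3.10.9.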

Additional observations from a re-analysis of the deposited data

How the results depend on the processing

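The alternatives tried included a −log10 q-value of 5 or more, summits inside the windows, windows widened by 10 kb, each window left out, 50% cover as overlap, lists of equal length and ranking by −log10 q-value. Of 159 values over 18 results, 11 moved out of the main interval or, for counts, by over 1.5 times. Without the first chromosome 6 cluster, 19, 16 and 20 regions of 53BP1, S5p and S2p remained, by construction. The share of S5p members with 53BP1 was 58.1% with 50% cover and 100% with lists of equal length or, as added after seeing the data, above the 95th percentile. The share of S2p members with S5p was 97.4% at the q-value limit and 96.8% with lists of equal length, and with 53BP1 89.5% and 96.8%. Both settings leave out weak regions, and the cause of these changes was not tested. Ranked by −log10 q-value, the median S5p percentile was 98.7; the cause was not tested. The share of strong S5p members that 53BP1 covered by at least 50% stayed between 71.4% (first chromosome 6 cluster left out) and 87.5% (lists of equal length); these alternatives were added after seeing the data. No paired analysis was possible because there was only 1 library for each ChIP. The unknown depth limits what a missing region means.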
